A study of Homo sapiens
Mus musculus with 17 samples.

Results

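The keratin gene family was followed in the human reads of 17 xenograft tumours of VM-CUB-1, an established line of human bladder cancer cells. All symbols made of KRT, a number and at most one letter from A to C were taken from the deposited human table, which gave 55 keratins among 23368 genes. A mean of 10 or more normalized counts across the 17 libraries was required for testing, which 32 keratins and 14533 genes in all reached. The 32 were 3 of 3 basal, 5 of 5 stress, 12 of 15 suprabasal and 4 of 5 simple-epithelial keratins, 7 of 26 hair and hair-follicle keratins, and KRT222, which was placed in no class. Normalized counts are the authors' read counts divided by a size factor per library. Each library comes from 1 tumour grown in a Hsd:Athymic Nude-Foxn1nu mouse, a host that lacks T cells and carries hair-follicle and skin defects. Mice were dosed for 7 days. The vehicle group (n = 4) received 0.5% methylcellulose with 0.1% Tween80, the alpelisib group (n = 4) 25 mg/kg alpelisib, the nintedanib group (n = 5) 40 mg/kg nintedanib, and the combination group (n = 4) both drugs. Alpelisib inhibits the alpha isoform of PI3K, and nintedanib inhibits receptors of VEGF, FGF and PDGF. Of the nintedanib tumours, the titles name 3 responders and 2 non-responders, whereas the series description gives the reverse numbers, and the titles were followed. All tumours derive from 1 cell line. Whether each tumour had its own mouse is not stated in the labels, and the p-values therefore reflect the spread among these libraries, which may be partly technical.

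Keratins are the intermediate filament proteins of epithelial cells. A type I and a type II keratin pair to form each filament, and the pair in use follows the state of the cell: KRT5 with KRT14 in basal cells, KRT8 with KRT18 in simple epithelium, KRT4 with KRT13 in the suprabasal layers of moist stratified epithelium, KRT1 with KRT10 in cornifying epidermis, and KRT6 forms with KRT16 or KRT17 in wounded, stressed or hyperproliferating epithelium. In the bladder, basal urothelial cells express KRT5, while KRT20 marks the luminal umbrella cells, and the balance of these classes is used to separate basal or squamous from luminal bladder cancers.

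Human reads ranged from 7429753 in Vehicle 3 to 25654879 in Vehicle 2, with a median of 20312801. Summed levels of 6 epithelial markers (EPCAM, CDH1, CLDN7, CLDN4, ESRP1 and RAB25) lay between 10060.7 and 13883 normalized counts in all libraries. Every alpelisib sum (10060.7 to 11686) lay below every vehicle sum (11849.8 to 13883), while nintedanib (10307 to 12741) and combination sums (10074 to 12822) overlapped the vehicle range, and the part of this in the keratin results was not tested. Markers of host cells differed widely in the human table. The endothelial gene CDH5, the T cell gene CD3E and the pan-leukocyte gene PTPRC did not exceed 2.19, 9.87 and 11.9 normalized counts, but the endothelial gene VWF ranged from 111.5 to 450.4 and the collagen gene COL1A1 from 1203.5 to 8165. The sum of 6 fibroblast genes, most of it COL1A1, was 2083 to 6883 with vehicle, 1849 to 4386 with alpelisib, 1624.5 to 9874 with nintedanib and 2885 to 7489 with the combination, which overlapped. The sum of 5 vessel genes was 168 to 451 with vehicle, 334 to 482 with alpelisib, 125.5 to 314 with nintedanib and 146 to 411 with the combination. The sum of 5 leukocyte genes, most of it the macrophage gene CD68, was 301 to 609 in the vehicle libraries, 640.2 to 1070.4 with alpelisib, 406 to 1371 with nintedanib and 640.5 to 1106 with the combination. All alpelisib and combination sums of the leukocyte genes lay above all vehicle sums. Of these genes 3 were tested. Against vehicle, 2 had a log2 fold change above 0 with alpelisib (52% of all genes) and 1 with the combination (47.2%). The part of the vessel, fibroblast and leukocyte sums in the keratin results was not tested. The vessel, fibroblast and leukocyte genes counted here are human, while the host cells are of mouse. Whether their reads come from tumour cells or from mouse reads assigned to human genes was not tested. In bulk tissue, fewer cells of a type and less RNA per cell cannot be told apart.

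Host skin was visible in 2 libraries. In the mouse table, the epidermal keratin Krt10 reached 1754 in Vehicle 4 and 6621 in Alpelisib 1 and no more than 15.6 in the other libraries. Krt1 reached 1723.5 and 6507 in the same 2 libraries, against at most 4.99 elsewhere. Values without both are given for KRT1, KRT7, KRT10, KRT16, KRT17, KRT31, KRT34 and KRT79 and for the counts of keratins whose groups did not overlap. Of the 32 keratins, 29 have a gene of the same name in the mouse table, and for 19 of these the human value was the higher one in all 17 libraries. The median mouse value was 0.203% of the human value, and the highest share was 68.7%, for KRT6B. The next highest were 34.4% for KRT14, 33.1% for KRT15 and 14.1% for KRT17. The 2 tables were scaled separately, so these percentages are approximate. KRT6A, KRT6B and KRT6C are near-identical copies, and KRT14, KRT16, KRT17, KRT8, KRT18, KRT81 and KRT86 have close paralogs or pseudogenes. How reads were divided among such copies is not given in the sources used here, and the counts of these genes are uncertain to that extent.

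Most keratins had higher levels in treated than in vehicle tumours, and 2 of them, KRT7 and KRT16, passed the test in the combination. A gene was called at a limma adjusted p under 0.05 over all 14533 genes. In the combination against vehicle, 2 of 32 keratins were called, both higher, where 0.358% of all genes were called and 0.317% were called higher. Against vehicle, 28 of 32 keratins lay above 0 with the combination (47.2% of all genes), 30 with alpelisib (52% of all genes) and 25 with nintedanib (49.8% of all genes). These counts include KRT37 and KRT81, which had vehicle means of 4.33 and 6.97 and reached the minimum of 10 only through the treated groups. The 24 tested basal, stress, suprabasal and simple keratins all had vehicle means over that minimum. Of these, 22, 23 and 20 lay above 0 in the same order. The median log2 fold change of the 32 keratins was 1.06, 0.96 and 0.66 in the same order, beside medians of -0.03, 0.02 and 0.00 over all genes tested. The 3 comparisons share the 4 vehicle libraries and are not independent of each other.

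**Figure D1:**
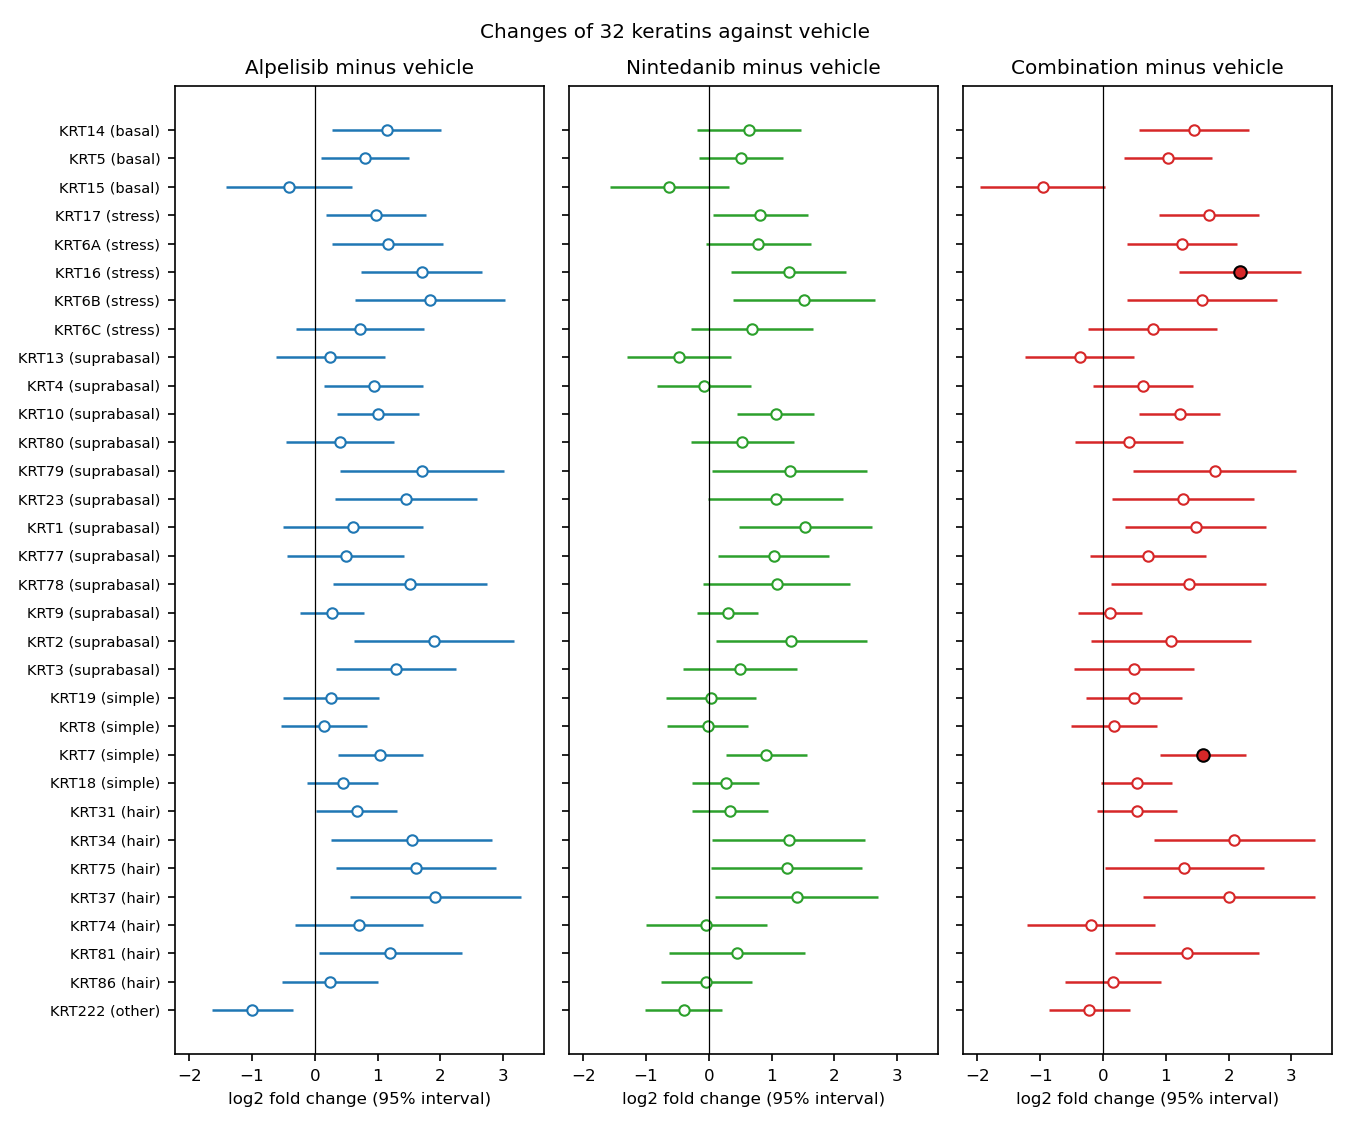
Log2 fold change (horizontal axis) of each of the 32 keratins against vehicle, with its 95% interval from limma, for alpelisib (left), nintedanib (middle) and the combination (right). Filled points mark the 2 calls, KRT7 and KRT16 in the combination, and most of the other points lie to the right of 0 in all 3 panels.

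No keratin was called with limma in alpelisib or nintedanib against vehicle, where 0% of all genes were called. At an unadjusted p under 0.05, 19 of 32 keratins were higher with alpelisib (11.5% of all genes) and 1 was lower (7.17%). The count was 12 higher with nintedanib (5.11%) and 0 lower (2.01%), and 16 higher with the combination (11.2%) and 0 lower (6.89%). Without Vehicle 2 the higher counts were 9 with alpelisib, 5 with nintedanib and 10 with the combination. The nintedanib count was also 6 without Nintedanib responder 1 or 3 and 7 without Vehicle 1. It rose to 15 without Vehicle 4 and to 16 without both Vehicle 4 and Alpelisib 1. The edgeR and limma-voom tests on recovered reads called 0 keratins in either single-drug comparison, and DESeq2 called 8 with alpelisib and 1 with nintedanib. DESeq2 gave an adjusted p for only 1008 genes there, 13 of them keratins. Every alpelisib library exceeded every vehicle library for 11 keratins, where 5.89% of all genes did so. The same held for 10 keratins in the combination (5.27% of all genes), with 0 lower in every library (5.31%). In nintedanib it held for 0 keratins in either direction (0.819% of all genes higher and 0.509% lower). Without Vehicle 4 and Alpelisib 1 these counts were 16 (15.6% of all genes), 14 (7.79%) and 2 (3.22%). Counts over the 32 keratins include KRT37 and KRT81, which passed the minimum mean only through the treated groups. With all libraries, the 24 basal, stress, suprabasal and simple keratins had 14, 9 and 12 higher at an unadjusted p under 0.05 with alpelisib, nintedanib and the combination. Those higher in every library numbered 10, 0 and 9.

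**Figure D2:**
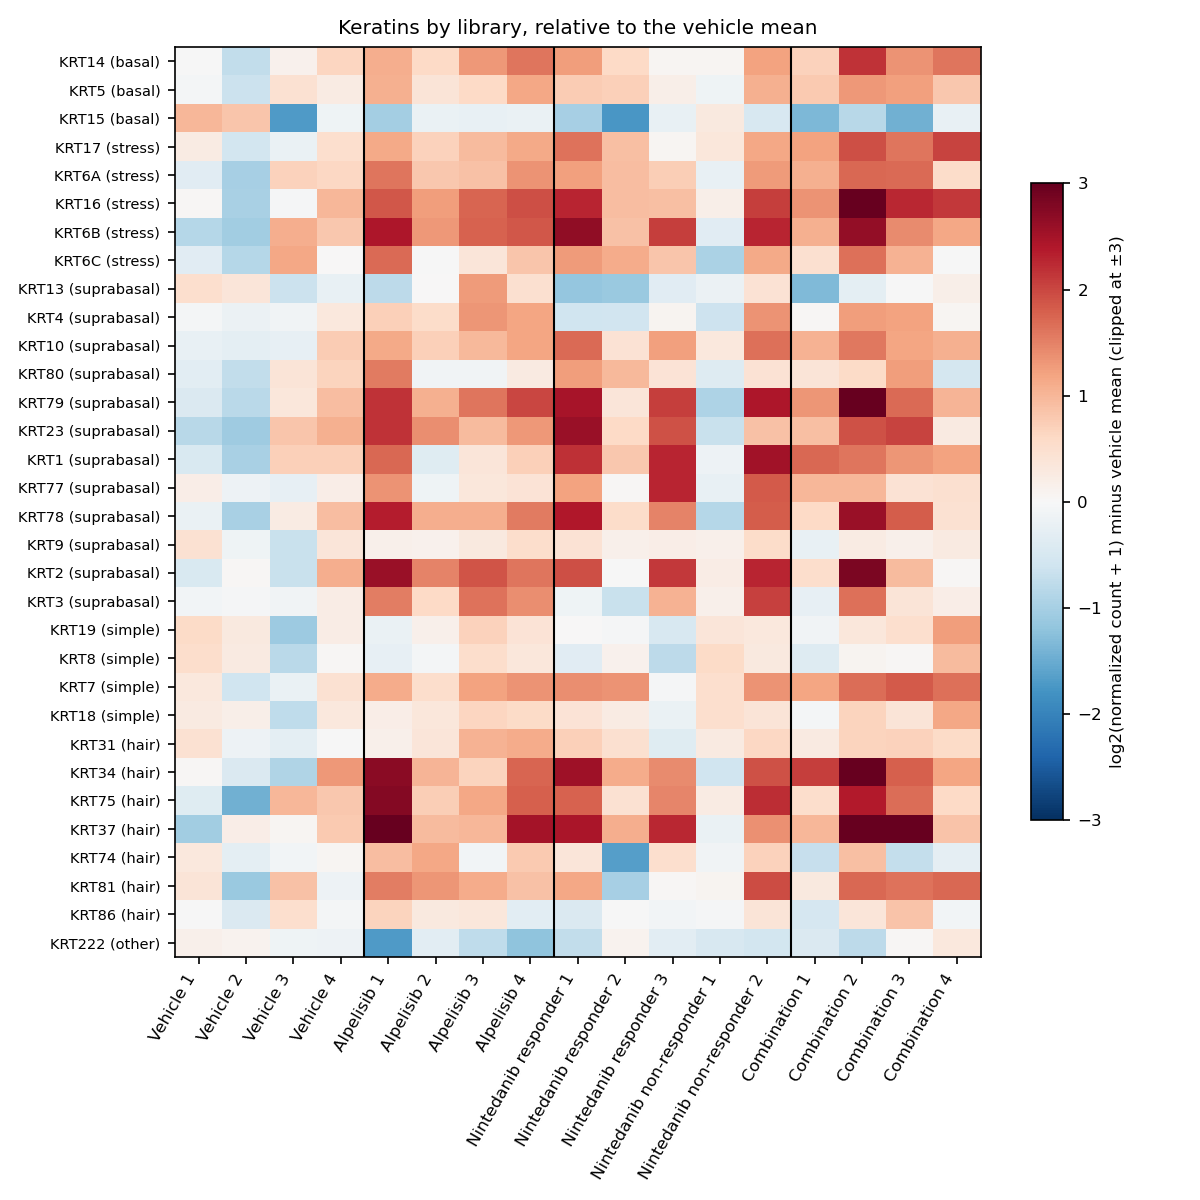
Log2(normalized count + 1) of the 32 keratins (rows, by class) in the 17 libraries (columns, by group), relative to the mean of the 4 vehicle libraries and clipped at ±3. Red is above and blue below the vehicle mean, and the stress keratins are red in all alpelisib and combination libraries except KRT6C, which lies near the vehicle mean in Alpelisib 2 and Combination 4, while KRT15 is blue in most treated libraries.

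The basal keratins KRT14 and KRT5 had higher means in all treated groups, and KRT15, the third of the class, had lower ones, but no basal keratin was called. KRT14, the type I keratin of basal cells, measured 92608, 55319, 100925 and 144189 normalized counts in the vehicle libraries. It measured 196655, 141077, 227336 and 281627 with alpelisib, and 150709, 415046, 234630.3 and 284215 with the combination. With nintedanib the responders gave 221912.5, 141702 and 97544 and the non-responders 97364 and 214962. All combination libraries lay above all vehicle libraries, the alpelisib libraries overlapped them through Alpelisib 2 alone, and nintedanib spanned both ranges. The log2 fold change of KRT14 against vehicle was 1.45 ± 0.41 (SE) with the combination (adjusted p = 0.112), 1.14 ± 0.41 with alpelisib (adjusted p = 0.22) and 0.64 ± 0.39 with nintedanib (adjusted p = 0.618).

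KRT5, the type II partner of KRT14, gave 63083, 42539, 90080.0 and 78917 normalized counts with vehicle and 114374, 164041, 154556 and 115498 with the combination. Its levels were 137823, 86229.7, 99925 and 148135 with alpelisib, 111802, 109108 and 74529 in nintedanib responders, and 60728 and 137414 in non-responders. The combination and vehicle ranges did not overlap, and Alpelisib 2 again fell inside the vehicle range. KRT5 had a log2 fold change of 1.03 ± 0.33 with the combination (adjusted p = 0.143), 0.80 ± 0.33 with alpelisib (adjusted p = 0.24) and 0.52 ± 0.32 with nintedanib (adjusted p = 0.618). The mouse gene Krt14 also differed between the groups in the mouse table. Its mean was 28271 ± 6435 (SD, n = 4) with vehicle, 71979 ± 14436 (SD, n = 4) with alpelisib, 42322 ± 11952 (SD, n = 5) with nintedanib and 98775 ± 44590.3 (SD, n = 4) with the combination. Mouse Krt14 was lowest in Vehicle 2 (19035) and highest in Combination 2 (149609), as was human KRT14. In Vehicle 4, where the epidermal keratin Krt10 reached 1754, mouse Krt14 was 29356. Whether reads were exchanged between the human and mouse genes was not tested.

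KRT15, a type I keratin of basal and progenitor cells, measured 6479, 5845, 997 and 3005 with vehicle and 1289.7, 1819, 1208 and 2775 with the combination. Vehicle 3, the library with the fewest reads, held the lowest vehicle value by a wide margin, so the ranges overlapped. The log2 fold change was -0.96 ± 0.47 with the combination (adjusted p = 0.293), -0.41 ± 0.47 with alpelisib and -0.63 ± 0.45 with nintedanib. KRT15 was thus the basal keratin below 0 in all 3 comparisons, and none of these differences was called. Mouse Krt15 was 869 ± 447 (SD, n = 4) with vehicle and 1141.5 ± 409 (SD, n = 4) with the combination. The human value was the higher one in 16 of 17 libraries. An exchange of reads between human KRT15 and mouse Krt15 was not tested.

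Among the stress keratins, all 5 lay above 0 in each treatment against vehicle, and KRT16 was called in the combination. KRT16 is a type I keratin induced in wounded and hyperproliferative epithelium. Its normalized counts were 9080.2, 4499.9, 8652 and 17593 with vehicle and 22622, 70955, 42807 and 38673 with the combination. Alpelisib libraries gave 32327, 21087, 29867 and 34147, nintedanib responders 43250.2, 16764 and 16468, and non-responders 10108 and 37207. Every combination and every alpelisib library lay above every vehicle library, while 3 of the 5 nintedanib libraries fell below Vehicle 4. The means were 9956 ± 5494 (SD, n = 4) with vehicle and 43764 ± 20109.6 (SD, n = 4) with the combination. KRT16 rose 4.55-fold in the combination, a log2 fold change of 2.19 ± 0.46 with a limma adjusted p of 0.0485. It was 1.70 ± 0.46 with alpelisib (adjusted p = 0.209) and 1.27 ± 0.44 with nintedanib (adjusted p = 0.618). The call was lost in 11 of the 17 fits that left out 1 library each, with adjusted p between 0.0285 and 0.194, and the log2 fold change lay between 1.86 and 2.51 in these fits. It was also lost with edgeR, with a minimum mean of 50, with no low-value filter and with the replicate block. Those fits were the ones without any single alpelisib library, without Combination 2, 3 or 4, without Vehicle 1, 2 or 3, or without Nintedanib responder 2. Mouse Krt16 did not exceed 998 in any library or 123 outside Vehicle 4 and Alpelisib 1. Without those 2 libraries the KRT16 log2 fold change in the combination was 2.51 with an adjusted p of 0.0429.

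KRT17, a type I keratin of basal and stressed keratinocytes, separated 3 of the groups. It measured 120495, 69846.5, 89306 and 146257.5 with vehicle, 224999, 164130.1, 196686 and 223434 with alpelisib, and 234930.5, 394143, 310876 and 417040.3 with the combination. Nintedanib responders gave 316452, 192599.7 and 106585 and non-responders 129395 and 230046. All alpelisib libraries lay above all vehicle libraries, and all combination libraries lay above all alpelisib libraries. The log2 fold change of KRT17 in the combination was 1.69 ± 0.38, with an adjusted p of 0.0661 by limma, 0.0457 by edgeR and 0.0416 by limma-voom. Without Vehicle 4 and Alpelisib 1 it was 1.86 with a limma adjusted p of 0.075. It was 0.97 ± 0.38 with alpelisib (adjusted p = 0.231) and 0.82 ± 0.36 with nintedanib. Mouse Krt17 was 15144 ± 2730.4 (SD, n = 4) with vehicle and 53751 ± 19232 (SD, n = 4) with the combination. An exchange of reads between the human and mouse genes was not tested.

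KRT6A, a type II partner of KRT16 and KRT17, measured 37391, 23581, 76304 and 72615 with vehicle, 143544, 82465, 85841 and 120124 with alpelisib, and 98736, 154139, 153727 and 68410.2 with the combination. Nintedanib responders gave 110742.5, 88728 and 78421.5 and non-responders 40204 and 114356.5. The alpelisib and vehicle ranges did not overlap, and Combination 4 fell inside the vehicle range. Its log2 fold changes were 1.16 ± 0.42, 0.79 ± 0.40 and 1.26 ± 0.42 with alpelisib, nintedanib and the combination. KRT6B, a near copy of KRT6A, measured 665, 582, 2558 and 2115 with vehicle and 2518, 7523, 3231 and 2703 with the combination. It had log2 fold changes of 1.84 ± 0.57, 1.51 ± 0.54 and 1.58 ± 0.57 in the same order, and KRT6C had 0.72 ± 0.49, 0.68 ± 0.46 and 0.79 ± 0.49. None of these was called. Mouse Krt6b was 1321 ± 747 (SD, n = 4) with vehicle, 3440.0 ± 1782 (SD, n = 4) with alpelisib, 1750.5 ± 514 (SD, n = 5) with nintedanib and 3574 ± 2123 (SD, n = 4) with the combination. The human means were 1479.9 ± 1006 (SD, n = 4), 4471 ± 1457 (SD, n = 4), 4331 ± 2699.7 (SD, n = 5) and 3994 ± 2372 (SD, n = 4), and the human value was the higher one in 13 of 17 libraries. An exchange of reads between human KRT6B and mouse Krt6b was not tested.

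**Figure D3:**
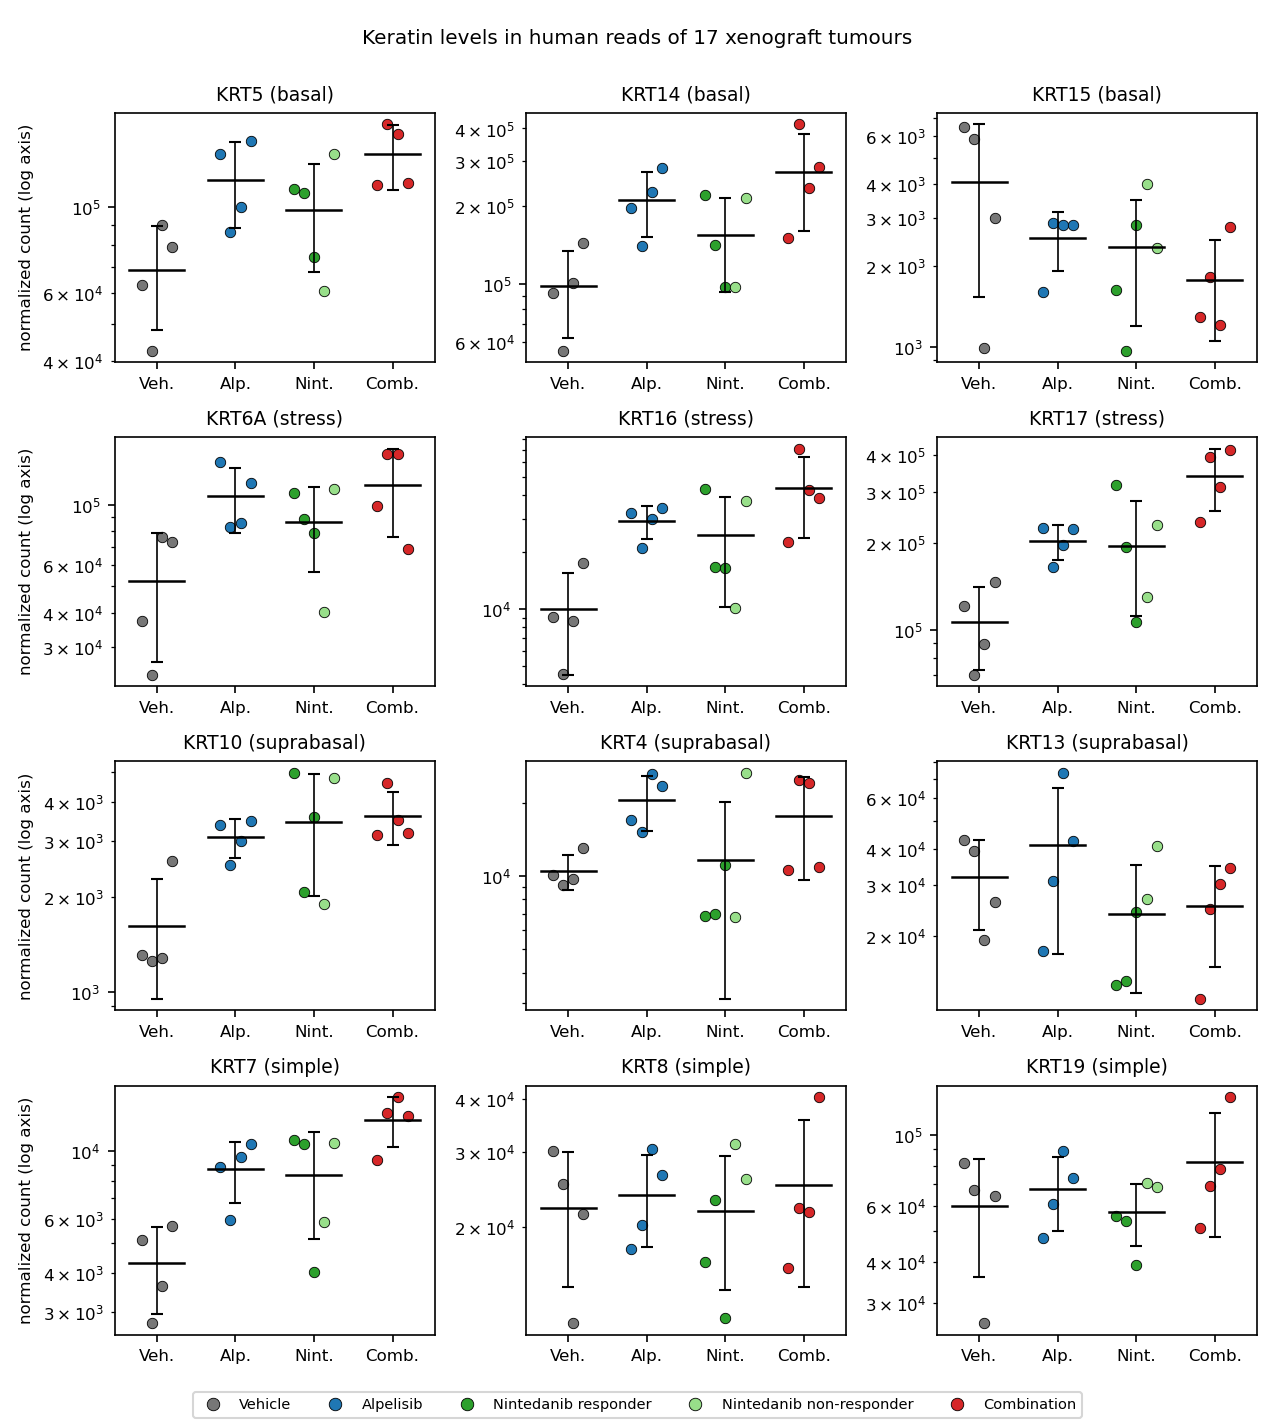
Normalized counts (log axis) of 12 keratins, 3 for each of the basal, stress, suprabasal and simple classes, with a point for each library, a bar at the mean and whiskers of 1 SD. The combination points of KRT16, KRT17 and KRT7 all lie above the vehicle points, whereas the groups overlap for KRT13, KRT8 and KRT19.

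Of the 12 suprabasal keratins tested, none was called. KRT13 and KRT4, the pair of moist stratified epithelium, held the highest read counts of the class. KRT13 measured 42857, 39371, 19338 and 26113.5 with vehicle, 17629.5, 30845, 73518 and 42479 with alpelisib, and 12046, 24693.5, 30129.8 and 34320.1 with the combination. Nintedanib responders gave 13527.5, 13963 and 24072 and non-responders 26875 and 40918.5. The ranges overlapped in every comparison with vehicle, and the log2 fold changes were 0.25 ± 0.41 with alpelisib, -0.47 ± 0.39 with nintedanib and -0.37 ± 0.41 with the combination.

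KRT4 measured 10046, 9171, 9739 and 13035 with vehicle, 17046, 15115, 26179 and 23455 with alpelisib, and 10607, 24805, 24063 and 10839 with the combination. Nintedanib responders gave 6831, 6958 and 11091 and non-responders 6794 and 26544. Every alpelisib library lay above every vehicle library. Combination 2 and 3 lay above the vehicle range and Combination 1 and 4 inside it. Log2 fold changes of KRT4 were 0.94 ± 0.38 with alpelisib, -0.07 ± 0.36 with nintedanib and 0.64 ± 0.38 with the combination, none of them called.

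KRT10 and KRT1, the pair of cornifying epidermis, had higher means in every treated group. KRT10 measured 1307, 1253, 1279.9 and 2607 with vehicle, 3385, 2526, 3014 and 3482.5 with alpelisib, and 3144, 4606.5, 3496 and 3203 with the combination. Vehicle 4, 1 of the 2 libraries with mouse epidermal reads, stood above the other vehicle libraries. The log2 fold change in the combination was 1.22 ± 0.31 with an adjusted p of 0.0951, 0.0417 without Vehicle 4 and 0.0606 without both libraries. With alpelisib it was 1.01 ± 0.31 and with nintedanib 1.06 ± 0.29, and 1.22 and 1.32 without both libraries. KRT1 measured 158, 111, 361 and 357 with vehicle and 724, 671, 552 and 509.8 with the combination, with no overlap. Its log2 fold changes were 0.61 ± 0.53, 1.53 ± 0.50 and 1.47 ± 0.53 with alpelisib, nintedanib and the combination, and 0.47, 1.77 and 1.71 without both libraries.

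The other 8 suprabasal keratins had mean read counts below that of KRT10 and were not called. KRT79, a keratin of skin appendages and ducts, had log2 fold changes of 1.71 ± 0.62, 1.29 ± 0.59 and 1.78 ± 0.62 with alpelisib, nintedanib and the combination. Mouse Krt79 was 682 in Vehicle 4 and 1117 in Alpelisib 1, above the human values of 426 and 1012 there, and at most 6.77 elsewhere. Without both libraries the KRT79 values were 1.86, 1.59 and 2.08. KRT2, of the upper epidermis, had 1.89 ± 0.61 (SE), 1.31 ± 0.57 and 1.08 ± 0.61. KRT78 had 1.52 ± 0.59, 1.08 ± 0.56 and 1.36 ± 0.59, and KRT23 had 1.46 ± 0.54, 1.06 ± 0.51 and 1.27 ± 0.54. KRT3, known from the cornea, had 1.29 ± 0.46, 0.49 ± 0.43 and 0.50 ± 0.46. KRT77 had 0.49 ± 0.44, 1.03 ± 0.42 and 0.72 ± 0.44, and KRT80 had 0.40 ± 0.41, 0.53 ± 0.39 and 0.42 ± 0.41. KRT9, of palm and sole epidermis, had 0.28 ± 0.24, 0.30 ± 0.23 and 0.11 ± 0.24. The class median was 0.97, 1.05 and 0.90, with 12, 10 and 11 of its 12 members above 0.

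Of the simple-epithelial keratins, KRT7 was called in the combination and KRT8, KRT18 and KRT19 were not. KRT7 is a type II keratin of simple and transitional epithelium and a diagnostic marker of urothelial carcinoma. It measured 5142, 2748.5, 3623 and 5698 normalized counts with vehicle and 9370.2, 13265, 14907 and 13016 with the combination. Alpelisib gave 8872, 5943, 9553 and 10532.5, nintedanib responders 10829, 10494 and 4038, and non-responders 5848 and 10590.3. All alpelisib and combination libraries lay above all vehicle libraries, and Nintedanib responder 3 fell inside the vehicle range. The means were 4303 ± 1358 (SD, n = 4) with vehicle and 12639.5 ± 2335 (SD, n = 4) with the combination. KRT7 rose 3.02-fold in the combination, a log2 fold change of 1.59 ± 0.32 with a limma adjusted p of 0.043. It was 1.05 ± 0.32 with alpelisib (adjusted p = 0.21) and 0.91 ± 0.31 with nintedanib (adjusted p = 0.618). The call was lost in 10 of the 17 fits without 1 library, the same ones as for KRT16 except Nintedanib responder 2, with adjusted p between 0.0133 and 0.187 and a log2 fold change between 1.40 and 1.75. It was also lost with no low-value filter, with the replicate block and without both Vehicle 4 and Alpelisib 1, where the log2 fold change was 1.75 with an adjusted p of 0.0566. Mouse Krt7 did not exceed 12.3 in any library.

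KRT19, a type I keratin of simple epithelium and of urothelium, measured 81884, 67423.5, 25834 and 64306 with vehicle, 47569, 60945.5, 88755 and 73573.5 with alpelisib, and 51169.7, 69378, 78269.6 and 131273 with the combination. Nintedanib responders gave 55674, 53968 and 39191 and non-responders 70857.5 and 68525. KRT8 measured 30171, 25196.5, 11899.9 and 21491 with vehicle, 17799, 20194, 30453 and 26504 with alpelisib, and 16018, 22216, 21687 and 40369.8 with the combination. For KRT8, nintedanib responders gave 16525, 23125.0 and 12273.5 and non-responders 31348 and 25906. The groups overlapped for both genes, with Vehicle 3 at the lower and Combination 4 at the upper end. Log2 fold changes were 0.26 ± 0.36, 0.04 ± 0.34 and 0.50 ± 0.36 for KRT19 with alpelisib, nintedanib and the combination. For KRT8 they were 0.14 ± 0.32, -0.02 ± 0.31 and 0.17 ± 0.32, and for KRT18 0.44 ± 0.27, 0.27 ± 0.26 and 0.53 ± 0.27. Without Vehicle 3 the alpelisib value was -0.10 for KRT19 and -0.13 for KRT8, so that the count of simple keratins above 0 was 2 in place of 4. KRT20, the umbrella cell keratin, had a mean of 4.01 normalized counts and a highest value of 10.9, and was not tested.

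Hair and hair-follicle keratins were scarce, and 19 of 26 lay below the minimum mean of 10. Of the 7 tested, KRT37 had log2 fold changes of 1.92 ± 0.65, 1.40 ± 0.62 and 2.01 ± 0.65 with alpelisib, nintedanib and the combination. KRT34 had 1.54 ± 0.61, 1.27 ± 0.58 and 2.09 ± 0.61, and KRT75, of the companion layer of the follicle, had 1.61 ± 0.61, 1.24 ± 0.57 and 1.30 ± 0.61. KRT81 had 1.205 ± 0.55, 0.45 ± 0.52 and 1.34 ± 0.55, and KRT31 had 0.67 ± 0.30, 0.34 ± 0.29 and 0.55 ± 0.30. KRT74 and KRT86 lay between -0.19 and 0.70 in all 3 comparisons. Mean levels of KRT37 and KRT81 were 4.33 and 6.97 with vehicle, under the minimum, which they passed through the treated groups. Mouse Krt31 and Krt34 were at 50.2 and 37.4 in Vehicle 4 and at or below 2.01 in the other libraries. Without Vehicle 4 and Alpelisib 1, KRT31 had 0.84, 0.34 and 0.54 and KRT34 had 1.59, 1.71 and 2.53, with adjusted p of at least 0.0804. None of the hair keratins was called with limma. DESeq2 called KRT34 and KRT37 in the combination.

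KRT222 was the 1 keratin lower in every alpelisib library than in every vehicle library (5.95% of all genes). It encodes a truncated keratin-like protein. It measured 95.6, 92.3, 78.2 and 76.8 with vehicle and 25.5, 68.7, 50.3 and 36.6 with alpelisib, and 63, 49.1, 87.2 and 105.9 with the combination. The log2 fold change was -0.99 ± 0.31 with alpelisib (adjusted p = 0.21) and -0.22 ± 0.31 with the combination (adjusted p = 0.728).

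The combination was set against each drug alone to ask what the second drug added, and no keratin was called by limma, edgeR, limma-voom or DESeq2. Against alpelisib 19 of 32 keratins lay above 0 (49.7% of all genes), with a median log2 fold change of 0.07. KRT222 was the 1 keratin at an unadjusted p under 0.05 and was higher (1.29% of all genes, and 3.17% lower, where 0 keratins were), with 0.77 ± 0.31 and an adjusted p of 0.943. This count was 0 without Alpelisib 4, Combination 3 or Combination 4, and 2 without Combination 1 or Nintedanib responder 3. KRT17 was the 1 keratin with every combination library above every alpelisib library (0.86% of all genes), and none had every library lower (1.55%). Its log2 fold change was 0.72 ± 0.38 with an adjusted p of 0.943. Against nintedanib 25 of 32 lay above 0 (51.3% of all genes), with a median of 0.20, and 17 did so without Nintedanib non-responder 1 and 19 without Combination 2. At an unadjusted p under 0.05, KRT17 (0.87 ± 0.36) and KRT7 (0.68 ± 0.31) were higher (1.28% of all genes), both at an adjusted p of 0.988, and 0 were lower (2.55%). No keratin separated the groups in every library, which 0.317% of all genes did upwards and 0.908% downwards. The count at an unadjusted p under 0.05 was 0 without Nintedanib non-responder 1, responder 3 or Combination 2, 1 without Combination 3 or 4, 4 without Nintedanib responder 1 or Vehicle 2, and 6 without Nintedanib non-responder 2 or Combination 1.

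Departure from additivity was computed on the log2 scale as the sum of combination and vehicle less the sum of both single drugs. It lay below 0 for 28 of 32 keratins, where 46.1% of all genes lay above 0. The median was -0.56 for the keratins and -0.05 for all genes. The keratins above 0 numbered 4, or 9 without Combination 1, 8 without Nintedanib non-responder 2, and 2 without Combination 4 or Vehicle 1. No keratin was called by the 4 tools, and the lowest limma adjusted p was 0.662. At an unadjusted p under 0.05, KRT2 (-2.12 ± 0.83) and KRT6B (-1.77 ± 0.78) were lower (4.42% of all genes) and KRT222 (1.17 ± 0.42) was higher (2.42%). For KRT16 the departure was -0.79 ± 0.63 (adjusted p = 0.69). Averaged over both backgrounds, the alpelisib effect was above 0 for 30 of 32 keratins (49.5% of all genes) and the nintedanib effect for 26 (47.7%). At an unadjusted p under 0.05 the counts were 15 higher (9.55% of all genes) and 0 lower (5.53%) for alpelisib and 6 higher (2.83%) and 0 lower (2.26%) for nintedanib, and none was called with limma, edgeR or limma-voom. DESeq2 called KRT7, KRT14, KRT16 and KRT17 for the alpelisib effect and none for the nintedanib effect. KRT16 had an averaged alpelisib effect of 1.31 ± 0.32 (adjusted p = 0.176) and KRT7 of 0.86 ± 0.22 (adjusted p = 0.18).

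Among nintedanib tumours, no keratin was called by the 4 tools in the 3 responders against the 2 non-responders, where limma called 0% of all genes. All 4 tested simple keratins lay below 0, with log2 fold changes from -0.77 to -0.03, and 3 of 4 did so without Nintedanib non-responder 2 or responder 3. The value nearest 0 was that of KRT7, whose mean was 8454 in responders and 8219 in non-responders. KRT7 lay above 0 with TMM scaling, DESeq2, edgeR, limma-voom and the replicate block. Of the 32 keratins, 3 (KRT19, KRT8 and KRT13) were lower in every responder than in every non-responder, a share close to the 7.66% of all genes. In the other direction 0 keratins were higher (6.85%). KRT8 had a log2 fold change of -0.77 ± 0.42, KRT19 of -0.51 ± 0.47 and KRT13 of -1.001 ± 0.53, with an adjusted p of 0.999 for each. KRT23 was the 1 keratin at an unadjusted p under 0.05 and was higher (1.2% of all genes, and 0.427% lower). It measured 1359.6, 344 and 846 in responders and 142 and 416 in non-responders, which overlapped, with a log2 fold change of 1.59 ± 0.69. It was at an unadjusted p above 0.05 without Nintedanib non-responder 1, responder 1 or responder 3, and 8 keratins were higher at that level without non-responder 2. All 5 stress keratins lay above 0, from 0.11 to 0.97, but all 5 lay below 0, from -0.70 to -0.07, without Nintedanib non-responder 1. Of all 32 keratins 18 lay above 0 (45.7% of all genes), which became 4 without Nintedanib non-responder 1 and 23 without non-responder 2. The median log2 fold change was 0.09, and -0.50 and 0.63 in those fits, so the direction of the family in this comparison rests on single libraries. Without Nintedanib responder 1, 12 of 32 keratins and 3 of 5 stress keratins lay above 0. Because title and series description disagree on the numbers of responders, the direction of these differences rests on the titles.

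The classes were also described as shares of human reads, without a test. The 55 keratins together held 2.42% to 3.64% of human reads with vehicle, 3.68% to 5.27% with alpelisib, 3.10% to 5.15% with nintedanib and 4.13% to 6.99% with the combination. The alpelisib and combination ranges did not overlap the vehicle range. Shares of reads depend on transcript length. Basal keratins made up 35.2% ± 6.1 (SD, n = 4) of keratin reads with vehicle and 37.0% ± 3.4 (SD, n = 4) with the combination. As shares of keratin reads in the same 2 groups, stress keratins made up 34.8% ± 5.7 (SD, n = 4) and 46.4% ± 1.8 (SD, n = 4), suprabasal keratins 9.92% ± 3.36 (SD, n = 4) and 4.54% ± 0.79 (SD, n = 4), and simple keratins 19.97% ± 8.36 (SD, n = 4) and 12.0% ± 3.6 (SD, n = 4). As shares of all human reads, simple keratins held 0.599% ± 0.213 (SD, n = 4) with vehicle and 0.678% ± 0.246 (SD, n = 4) with the combination, and suprabasal keratins 0.295% ± 0.0653 (SD, n = 4) and 0.260% ± 0.0701 (SD, n = 4). Basal keratins held 1.09% ± 0.294 (SD, n = 4) and 2.13% ± 0.597 (SD, n = 4), and stress keratins 1.09% ± 0.316 (SD, n = 4) and 2.63% ± 0.475 (SD, n = 4). The mean share of simple keratins was thus lower among keratin reads but not among human reads. The suprabasal share is weighted towards KRT13, with a vehicle mean of 31920 normalized counts beside 10498 for KRT4, the next member. KRT13 lay at -0.37 ± 0.41 (SE) with the combination, whereas 11 of the 12 suprabasal keratins lay above 0. The ratio of stress to simple keratin reads was 1.34, 0.959, 3.91 and 2.39 in the vehicle libraries and 4.33, 5.44, 4.13 and 2.64 with the combination. It was 2.27 to 4.98 with alpelisib and 1.54 to 5.21 with nintedanib, and Vehicle 3, with the lowest KRT8, KRT18 and KRT19 of all libraries, overlapped every treated group.

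**Figure D4:**
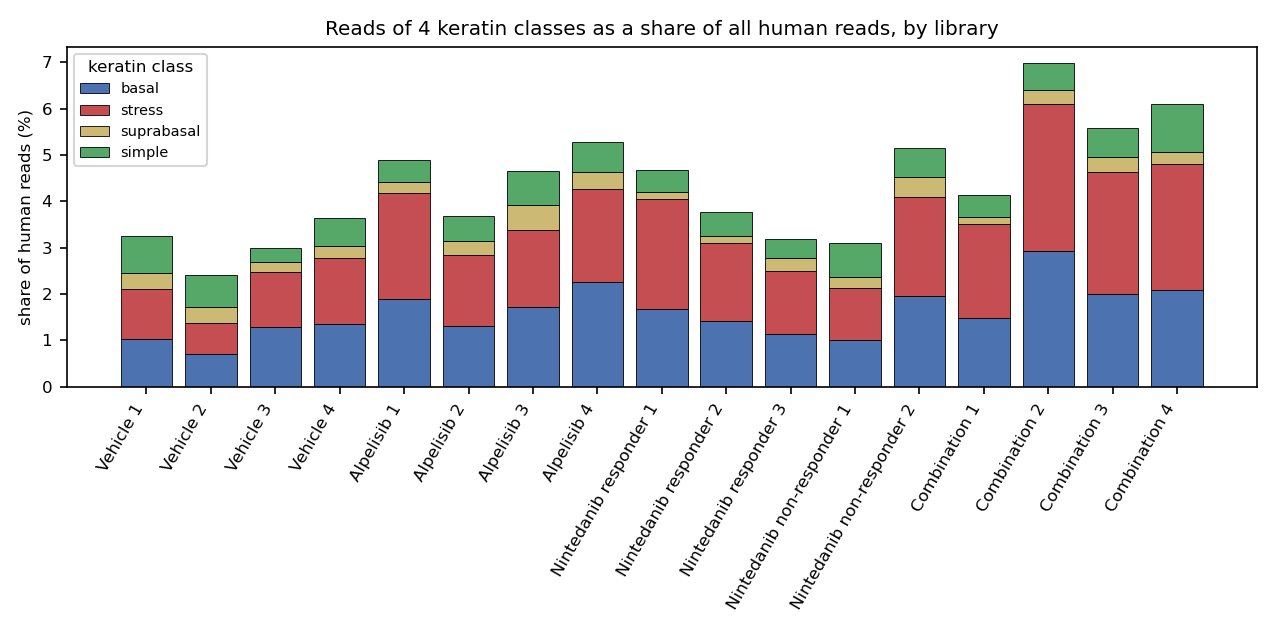
Share of all human reads (vertical axis, percent) held by basal, stress, suprabasal and simple keratins, stacked, in each of the 17 libraries. The stacks of the combination libraries reach 4.13% to 6.99% and those of the vehicle libraries 2.42% to 3.64%, with basal and stress keratins as the main part of each stack.

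Filament partners were compared over the 17 libraries by the correlation of their log2 levels. For 8 textbook pairs this was computed with permutation tests of 100000 resamples, adjusted over the pairs. Values were permuted over all 17 libraries regardless of group, so these p-values also reflect differences between the groups. No p-value was computed for the r within groups. Keratins that are not partners were not compared, so these values do not show whether a correlation is particular to partners. KRT5 and KRT14 correlated with Pearson r = 0.903 (permutation p = 2e-05, adjusted p = 8e-05) and Spearman rho = 0.887 (permutation p = 2e-05, adjusted p = 0.00016). The r was 0.843 without the 2 libraries farthest from the median KRT5 level and 0.797 after the group means were removed. KRT6A with KRT16 had r = 0.87 (permutation p = 1e-05, the smallest the test can give, adjusted p = 8e-05) and rho = 0.775 (permutation p = 0.00051, adjusted p = 0.0013), with 0.754 without the 2 farthest libraries and 0.761 within groups. KRT8 with KRT18 had r = 0.832 (permutation p = 4e-05, adjusted p = 8e-05) and rho = 0.681 (permutation p = 0.0032, adjusted p = 0.00493), with 0.694 and 0.904. KRT1 with KRT10 had r = 0.806 (permutation p = 0.00016, adjusted p = 0.000256) and rho = 0.819 (permutation p = 0.00019, adjusted p = 0.00076), with 0.717 and 0.769.

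KRT6B with KRT16 had r = 0.841 (permutation p = 4e-05, adjusted p = 8e-05) and rho = 0.765 (permutation p = 0.00065, adjusted p = 0.0013), with 0.721 without the 2 farthest libraries and 0.813 within groups. KRT6A with KRT17 had r = 0.725 (permutation p = 0.00072, adjusted p = 0.00096) and rho = 0.674 (permutation p = 0.0037, adjusted p = 0.00493), with 0.563 and 0.501. The remaining 2 pairs were weaker. KRT4 with KRT13 had r = 0.537 (permutation p = 0.0258, adjusted p = 0.0295) and rho = 0.426 (permutation p = 0.0889, adjusted p = 0.0889). The r was 0.36 without the 2 farthest libraries, Nintedanib non-responder 2 and Alpelisib 3, and 0.468 within groups. It lay between 0.438 and 0.600 without 1 library. KRT7 with KRT19 had r = 0.471 (permutation p = 0.0553, adjusted p = 0.0553) and rho = 0.429 (permutation p = 0.0862, adjusted p = 0.0889), with 0.406 without the 2 farthest libraries and 0.381 within groups.

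**Figure D5:**
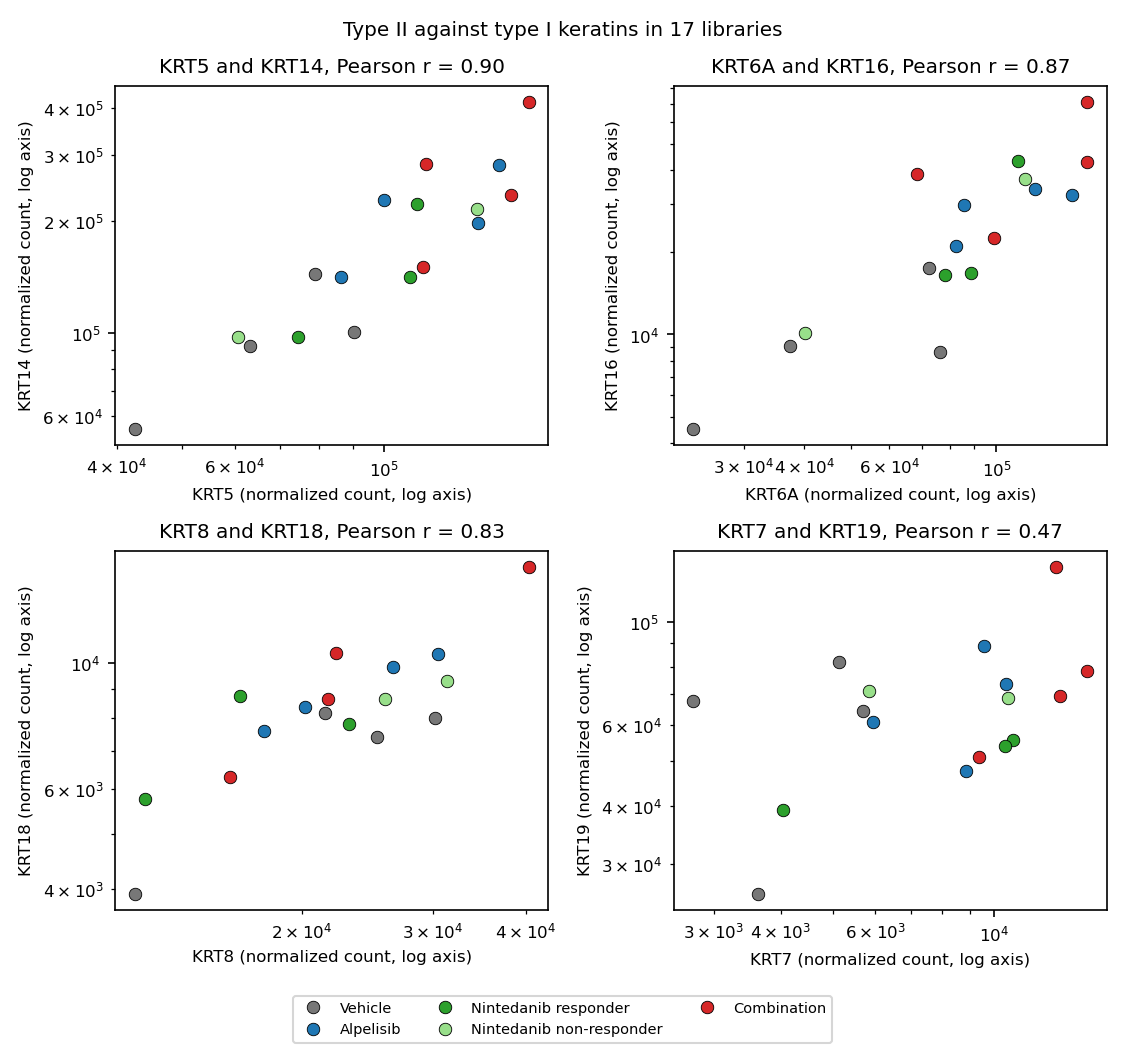
Normalized counts (log axes) of 4 type II keratins against type I keratins, with a point for each of the 17 libraries coloured by group. KRT5 with KRT14, KRT6A with KRT16 and KRT8 with KRT18 run along a diagonal (Pearson r of 0.90, 0.87 and 0.83), and KRT7 with KRT19 scatters more widely (0.47).

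Genes that work with keratins showed no call in any comparison with vehicle, where 0.358% of all genes were called with the combination and 0% with either drug alone. At so low a share, the absence of calls does not set these lists apart from other genes. Of 19 desmosome and filament anchor genes, 18 were tested and 14 lay above 0 in the combination (47.2% of all genes), with a median log2 fold change of 0.38. The highest ranked was PKP3, a plakophilin of the desmosomal plaque, at 0.95 ± 0.30 (adjusted p = 0.139), followed by the plakoglobin gene JUP at 0.72 ± 0.29 (adjusted p = 0.206) and the hemidesmosomal linker DST at 0.92 ± 0.39 (adjusted p = 0.222). Of 14 cornified envelope and keratin partner genes, 12 were tested and 10 lay above 0 (47.2% of all genes), with a median of 0.72. SFN, the 14-3-3 sigma protein that binds KRT17, was at 1.28 ± 0.35 (adjusted p = 0.103), corneodesmosin (CDSN) at 1.65 ± 0.64 (adjusted p = 0.188) and repetin (RPTN) at 1.17 ± 0.50 (adjusted p = 0.227). The same list in alpelisib against vehicle had 12 of 12 members above 0 (52% of all genes), with a median of 0.50.

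Of 26 transcription factors and signalling genes known to regulate keratin genes, all were tested and 13 lay above 0 in the combination (47.2% of all genes). Their median was 0.02, close to that of all genes. NOTCH1, a receptor that drives suprabasal differentiation, was at -1.04 ± 0.30 (adjusted p = 0.114), the luminal factor FOXA1 at -0.81 ± 0.30 (adjusted p = 0.174) and GRHL2 at -0.43 ± 0.19 (adjusted p = 0.251). NOTCH1 had a log2 fold change of -0.89 ± 0.30 with alpelisib (adjusted p = 0.21) and -0.78 ± 0.29 with nintedanib (adjusted p = 0.618). With alpelisib TFAP2C, an AP-2 factor of basal epithelium, was at 1.51 ± 0.41 (adjusted p = 0.209) and KLF4, a factor of suprabasal differentiation, at 0.80 ± 0.33 (adjusted p = 0.238). TFAP2C counts were low, with means of 10.03 ± 5.85 (SD) with vehicle and 27.29 ± 5.89 (SD) with alpelisib. The combination, which also contains alpelisib, had a TFAP2C mean of 9.25 ± 1.95 (SD), and each of its libraries lay below every alpelisib library. Against alpelisib its TFAP2C log2 fold change was -1.46 ± 0.41 (adjusted p = 0.943).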

How the data were processed

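Per the labels' protocols, polyA RNA was prepared with the TruSeq RNA v2 kit, which does not mark strand, and read on a NextSeq500 (paired ends, 75 bp). Per the submitters' processing notes, Bowtie, TopHat and DESeq2 were used with hg19 and mm10. Read counter, annotation and strand setting: not given in the sources used here. Values as deposited are a normalized signal, read counts that the authors divided by a size factor per library. Among human values 100% were whole reads, within 0.001, after division by the smallest step of a column.

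The keratins and gene lists were chosen with earlier results of these data known. Genes were assigned to classes by textbook knowledge. Log2(value + 1) of 14533 genes with a mean of at least 10 was fitted with limma-trend (limma 3.58.1, R 4.3.3), with 1 mean for each of 5 groups. The nintedanib mean weighted its 5 libraries equally. The threshold was 0.05 after Benjamini-Hochberg adjustment across all tested genes. Errors of log2 fold changes are SE. Class lists received no test. Every tested keratin was named; values in every library were given by rule for called keratins and the 2 highest means of each main class, and KRT15, KRT6B, KRT10, KRT1, KRT222 and KRT23 were added after their values were seen. Of the partner lists, up to 3 genes with the smallest p were named. Correlations used permutation tests (scipy 1.17.1). Recovered reads of the 2 most similar libraries of a group differed beyond sampling noise (chi-square per gene at least 18.6 over 22 pairs), so none was a copy. The fit was tested on simulated data.

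Alternatives were TMM scaling, pseudocounts of 0.5 and 5, no filter and a minimum mean of 50, edgeR 4.0.16, limma-voom and DESeq2 1.42.0 on recovered reads, a replicate block, and leaving out each library. Leaving out both libraries with mouse epidermal keratins was added after seeing the data, as were the fits of the counts of separated groups without Vehicle 3 and with TMM. No genome or sequence of the authors' build was used here, so no coordinates are given.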

Additional observations from a re-analysis of the deposited data

Results flagged for a closer look

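For 32 keratins in the 3 groups of 4 libraries, 96 cases in all, a library was marked when its gap to the nearest other library exceeded Dixon's 95% critical value for the group's range. Chance marks about 1 group in 20, which is 4.8 here, and 7 were marked. Combination 2 stood above the other combination libraries for KRT6B (7523 normalized counts, others 2518 to 3231), KRT2 (168, others 23.5 to 44.9) and KRT74 (24.9, others 7.48 to 10.5). Combination 1 stood below them for KRT81 (7.6, others 20.8 to 22.5).

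Alpelisib 1 stood below the other alpelisib libraries for KRT15 (1599, others 2812 to 2861) and above them for KRT80 (1653.5, others 521.6 to 685). Vehicle 4 stood above the other vehicle libraries for KRT10 (2607, others 1253 to 1307). Vehicle 4 and Alpelisib 1 are also the libraries in which mouse Krt10 reached 1754 and 6621.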

How the results depend on the processing

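The number of keratins called in the combination against vehicle was 2 with TMM scaling, pseudocounts of 0.5 and 5 and edgeR, and 3 with limma-voom. It was 9 with DESeq2, 1 with a minimum mean of 50 (KRT7), 1 without both libraries that hold mouse epidermal keratins (KRT16), 0 with no low-value filter and 0 with the replicate block, and 0 to 3 when each library was left out in turn. DESeq2 also called 8 keratins with alpelisib, 1 with nintedanib and 4 for the averaged alpelisib effect. Calls in all genes ranged from 0 to 97 over the fits without 1 library, against 52 in full, so the adjusted p of 1 gene moves with the rest. Replicate numbers were not read as pairs, since 7 of 27 pairs of libraries with the same number had correlated deviations over 0.1 (range -0.554 to 0.508), beside 30 of 81 with different numbers. In the fit with the replicate block, KRT7 had an adjusted p of 0.0771 and KRT16 of 0.0927.

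The following directions turned. KRT19 with nintedanib was -0.0751 with DESeq2, -0.0898 with edgeR and -0.33 to 0.23 without 1 library. KRT8 with nintedanib was 0.0576 with the replicate block and -0.29 to 0.17 without 1 library. KRT4 with nintedanib was 0.0635 with DESeq2, 0.0386 with edgeR, 0.0375 without both skin-bearing libraries and -0.43 to 0.0647 without 1 library. Without 1 library the ranges with alpelisib were -0.10 to 0.45 for KRT19, -0.0933 to 0.59 for KRT13 and -0.13 to 0.32 for KRT8, and with the combination -0.10 to 0.36 for KRT8 and -0.11 to 0.26 for KRT9. Responders against non-responders, KRT7 was 0.0375 with DESeq2, 0.0102 with TMM scaling, 0.0761 with edgeR, 0.0091 with limma-voom, 0.0243 with the replicate block and -0.457 to 0.438 without 1 library. In that comparison, the ranges without 1 library were -0.319 to 1.19 for KRT6A, -0.412 to 2.20 for KRT6B, -0.075 to 2.02 for KRT6C, -0.703 to 1.18 for KRT16 and -0.302 to 0.53 for KRT17. The count of simple keratins above 0 with alpelisib was 2 to 4, the r of KRT4 with KRT13 was 0.438 to 0.600, and that of KRT7 with KRT19 was 0.315 to 0.589. Keratins higher in every nintedanib library numbered 2 without both skin-bearing libraries, against 0. The cause was not tested.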
